A study of Sus scrofa with 4 samples.

Results

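The genes described here are 10 chemokine ligands, CXCL2, CXCL8, CXCL10, CXCL12, CCL2, CCL4, CCL5, CCL8, CCL19 and CCL20, out of 34853 gene names on a porcine oligonucleotide array. They were chosen by name, taking every non-control probe whose gene name in the scanner files was one of them (CXCL8 appears there as IL8), which gave 19 probes. CCL4 and CCL20 had 1 probe, CCL5 had 3 and the other 7 genes had 2. Of the 19 probes, 14 carried an accession listed under the same symbol in the RefSeq annotation of Sscrofa11.1, and none was listed under another symbol.

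Expression was measured in PIP cells, a porcine intramuscular preadipocyte line derived from marbled longissimus muscle of a Duroc pig, and in pMA, the adipocytes made from it. PIP cells were kept in growth medium with 10% serum at passages 26 to 35. The pMA had been 4 days post-confluent and were then held for 4 days in medium with 50 ng/mL insulin, 0.25 μM dexamethasone, 2 mM octanoate, 200 μM oleate and 10% serum, after which some were left unstimulated and others were treated for 12 h with serotonin at 100 μM or with TNF-α at 2.5 µg/mL. The labels write the serotonin dose per ml. All pMA, stimulated or not, thus share the hormones and fatty acids of that medium, including the glucocorticoid dexamethasone, and all 4 conditions come from 1 cell line. RNA was pooled within a condition and each condition has 1 array, so the differences below cannot be set against replicates and carry no p-value.

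The identity of the cells was checked on marker genes. CD36, CIDEC and PLIN2, which handle and coat lipid, had log2 ratios between pMA and PIP cells of 5.17, 3.87 and 3.13. PLIN1 and CEBPA, also adipocyte genes, were not well above background in either. ADIPOQ, another adipocyte gene, went the other way, being well above background in PIP cells but not in pMA. Of the 10 adipocyte markers 8 had a ratio, 7 above 0 and 1 below. Of the leukocyte and macrophage markers, 6 of 10 were on the array under these names. CD163 was not well above background on any array and SPI1 was not in PIP cells or unstimulated pMA, whereas CD14, TYROBP, AIF1 and CD3E were detected on all 4. Relative to unstimulated pMA, TYROBP had log2 ratios of 1.01 with serotonin and 1.57 with TNF-α, and AIF1 of -0.96 and -0.91. The summed level of those 6 markers, on the log2 scale, was 0.80 in PIP cells, 1.26 in pMA, 1.28 after serotonin and 1.88 after TNF-α, and its part in the chemokine results was not tested. In a culture measured in bulk, a change in the number of cells of a type and a change in RNA per cell cannot be told apart.

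Chemokines are small secreted proteins that draw leukocytes along a gradient by binding G protein-coupled receptors. The CXC ligands CXCL2 and CXCL8 attract neutrophils through CXCR2, CXCL10 attracts activated T cells through CXCR3, and CXCL12 retains and guides cells that carry CXCR4. Among the CC ligands, CCL2 and CCL8 attract monocytes, CCL4 and CCL5 attract T cells and monocytes, CCL19 guides lymphocytes and dendritic cells with CCR7, and CCL20 acts on CCR6. Several are classical targets of NF-kB, the transcription factor that TNF-α activates, and CXCL10 is also a target of interferons. Adipose cells are a known source of CCL2 in inflamed fat.

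Each value rests on hybridization to a 60-base probe, and the probes differed in how they can be read. The following probes hold no stop codon in their first reading frame and are shown whole because genes with several probes are judged from them. The CCL5 probe is the second brightest of 3, the CXCL12 probe is the dimmer of its pair, and the CCL8 probe is the only one of its gene that was detected. The CCL19 probe is the one that disagreed with its partner. They are written 5′ to 3′ as printed on the array, with no part set in capitals.
CCL5 A_72_P115401: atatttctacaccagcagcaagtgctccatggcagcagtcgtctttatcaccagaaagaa
CXCL12 A_72_P232477: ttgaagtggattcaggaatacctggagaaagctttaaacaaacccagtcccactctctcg
CCL8 A_72_P441594: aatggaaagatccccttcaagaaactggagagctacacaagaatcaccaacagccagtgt
CCL19 A_72_P150086: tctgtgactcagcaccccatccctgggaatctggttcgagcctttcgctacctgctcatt

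The CXCL2 probes overlap. Over a common stretch of 49 bases they are the same letter for letter, except that A_72_P146411 carries 1 extra base, set in capitals in the 30-base window below. They therefore read the same piece of transcript and are not independent measurements.
CXCL2 A_72_P146411: ttaattacactgtGtttccgctctgtcctg
CXCL2 A_72_P732383: ttaattacactgttttccgctctgtcctg

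Chance sharing of letters between ligands was short. Over 161 pairs of probes that belong to different ligands the longest shared run had a median of 6 bases, and the longest of all was the 13 bases that A_72_P146411 of CXCL2 and A_72_P372628 of CCL5 have in common, in capitals below. Levels on the PIP, pMA, serotonin and TNF-α arrays were -2.38, -3.16, -0.09 and 0.11 for the CXCL2 probe, and -3.06, -4.61, -5.05 and -3.40 for the CCL5 probe, the pMA and serotonin values of the latter being below detection. The CXCL2 probe thus had a high value after serotonin where the CCL5 probe was not detected.
CXCL2 A_72_P146411: tctgtcctGAAATAGAGAGGTtt
CCL5 A_72_P372628: GAAATAGAGAGGTgaggtcagaggttaagg

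Levels are given as log2 of the intensity over the 75th percentile of that array, so 0 is that percentile and a step of 1 is a doubling. A level compares arrays for 1 probe and does not rank genes. The arrays were of similar quality, with a 75th percentile of 479 to 566 intensity units, 56.5% to 66.0% of probes well above background (the highest share after TNF-α) and no saturated spot. Probes repeated on an array had a pooled standard deviation of 0.11 to 0.15 between spots. For a log2 ratio between arrays this gives 0.10 to 0.11 for probes of at least 100 intensity units and 0.25 to 0.29 for dimmer ones. Neighbouring levels of a gene are said to lie within the spot noise where they differ by less than 2 standard deviations of the ratio for probes of their brightness. This covers the noise of spots only. Where just 1 of 2 arrays detected a probe, the undetected value was raised to the faintest detected level of its array if it lay below that. An undetected value already above that level was used as it was. In both cases the ratio is written as "at least". No ratio is given if the detected value did not exceed the value it was set against. The cutoff of 2-fold is that of the study's methods.

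The number of ligands detected was largest on the TNF-α array, which also had the largest share of all probes detected. With each gene read by its brightest probe, 8 of 10 ligands were well above background in PIP cells, 8 in pMA, 9 after serotonin and 10 after TNF-α. Of the 19 probes, 11 were detected on all 4 arrays and 1, A_72_P308453 of CCL8, on none.

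**Figure D1:**
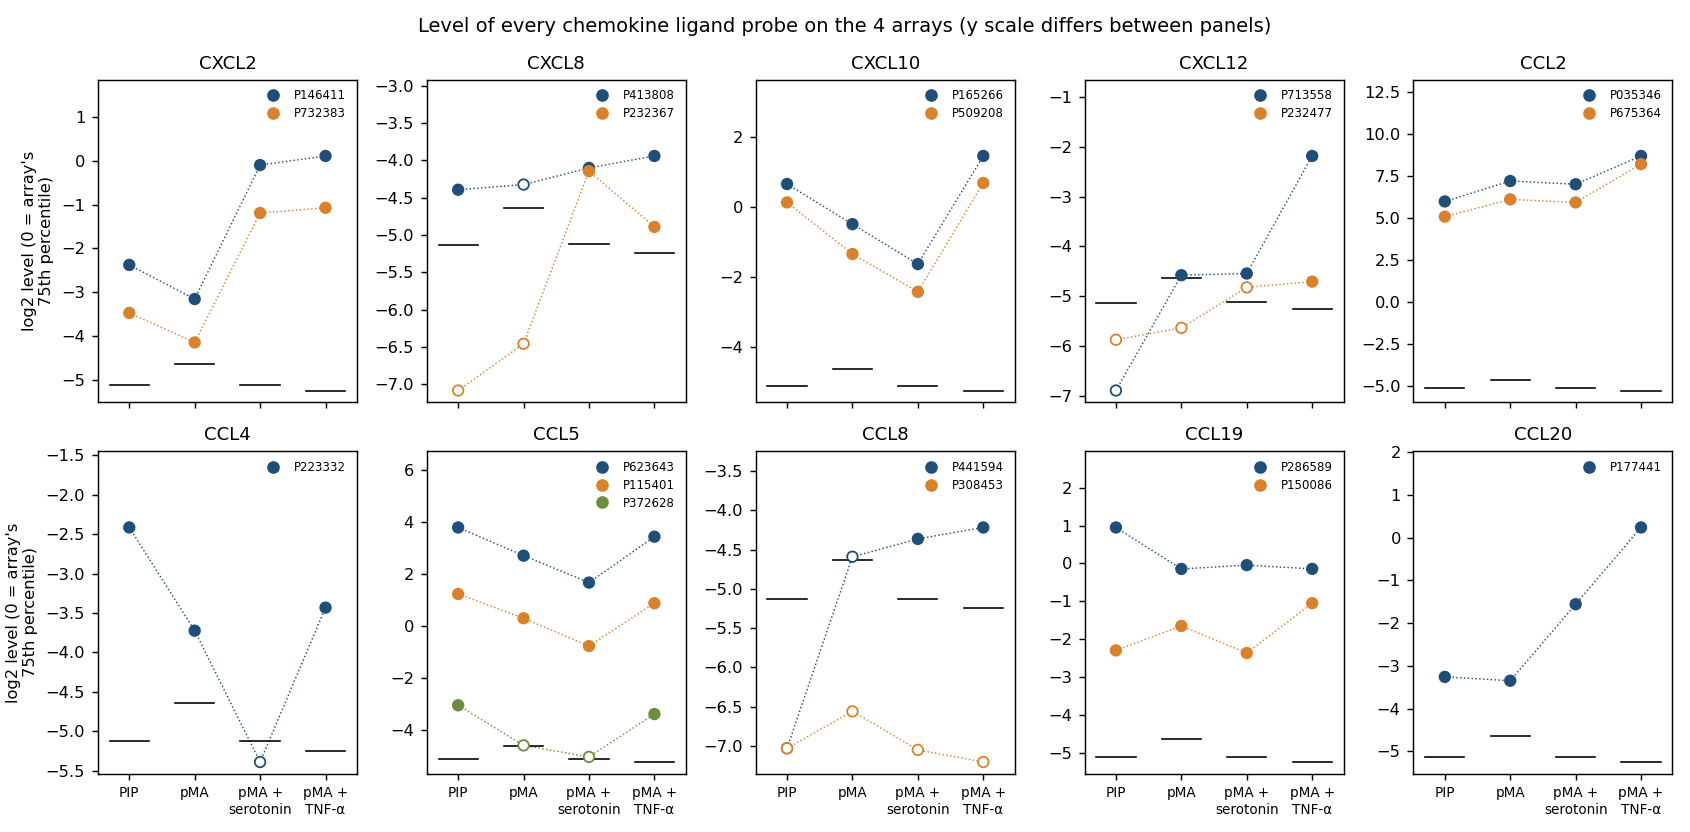
Log2 level of every probe of the 10 ligands (y axis, 0 is the 75th percentile of the array) in PIP cells, pMA, pMA with serotonin and pMA with TNF-α (x axis), 1 array each; colours mark probes, open circles are not well above background, and black bars mark the faintest detected level of each array. The probes of CXCL2, of CXCL10 and of CCL2 give the same directions in every comparison, while the CCL19 probes do not.

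With TNF-α, some but not all attractants of neutrophils, T cells and monocytes stood higher than in unstimulated pMA. Of the 10 ligands, 5 were at least 2-fold higher, CXCL2, CXCL10, CXCL12, CCL2 and CCL20, and 0 were at least 2-fold lower. Among all 19785 gene names with a ratio in this comparison, 2.21% were at least 2-fold higher and 1.34% lower. The other 5 gave ratios under 2-fold. Of these CCL4 and CCL19 lay within the spot noise. The ratios of CXCL8 and CCL8, which were below detection in pMA, are lower limits and could only fall above 0. At 0.38 and 0.37 on the log2 scale they did not exceed the spot noise either. The median log2 ratio over the 10 was 1.11, and 1.72 over the ligands detected on both arrays, against 0.01 for all gene names. The ligands were named with results of these arrays known, so the count describes them and tests nothing.

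With serotonin ligands stood on both sides. CXCL2 and CCL20 were at least 2-fold higher, while CXCL10, CCL4 and CCL5 were at least 2-fold lower than in unstimulated pMA. The other 5 gave ratios under 2-fold, those of CXCL8 and CCL8, below detection in pMA, being lower limits. Of 19093 gene names, 2.08% were at least 2-fold higher and 4.74% lower. The median log2 ratio of the 10 ligands was 0.07 against 0.01 for all gene names. Summed levels of some marker lists were also lower on the serotonin array, while that of the leukocyte and macrophage list was 1.28 against 1.26 in unstimulated pMA. The summed log2 level of the skeletal muscle list was 9.33 in PIP cells, 9.36 in pMA, 7.45 after serotonin and 9.25 after TNF-α, with ACTA1 at a log2 ratio of -1.94 and DES at -1.02 with serotonin. Of the 5 muscle genes with a ratio there, 4 were below 0 and 1 above. The summed level of the endothelial list was 0.67, 0.21, -1.05 and 0.21, with PECAM1 at -1.46, while CDH5 and TEK, and MYOD1 and MYF5 of the muscle list, were not well above background on any array. Their part in the chemokine results was not tested. The serotonin and TNF-α comparisons share the unstimulated array, and its noise enters both.

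In differentiation ligands stood on both sides. Between pMA and PIP cells, 1 ligand was at least 2-fold higher, CCL2, and 4 were at least 2-fold lower, CXCL10, CCL4, CCL5 and CCL19. Among 18635 gene names, 9.92% were at least 2-fold higher and 3.56% lower, so that after this scaling more genes were higher than lower. The median log2 ratio was -0.93 over the 8 ligands with a ratio and 0.12 over all gene names. Scaling decides part of this. The bright spike-in controls, 5 probes, were 0.43 higher in the PIP hybridization than in the pMA one. With the arrays scaled to them 0 ligands were at least 2-fold lower, with CXCL10 at -0.72, CCL4 at -0.88, CCL5 at -0.66 and CCL19 at -0.67. All gene names shifted too, with 284 of 18165 at least 2-fold lower and 4435 higher. The median was then -0.51 over the ligands and 0.57 over all gene names.

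**Figure D2:**
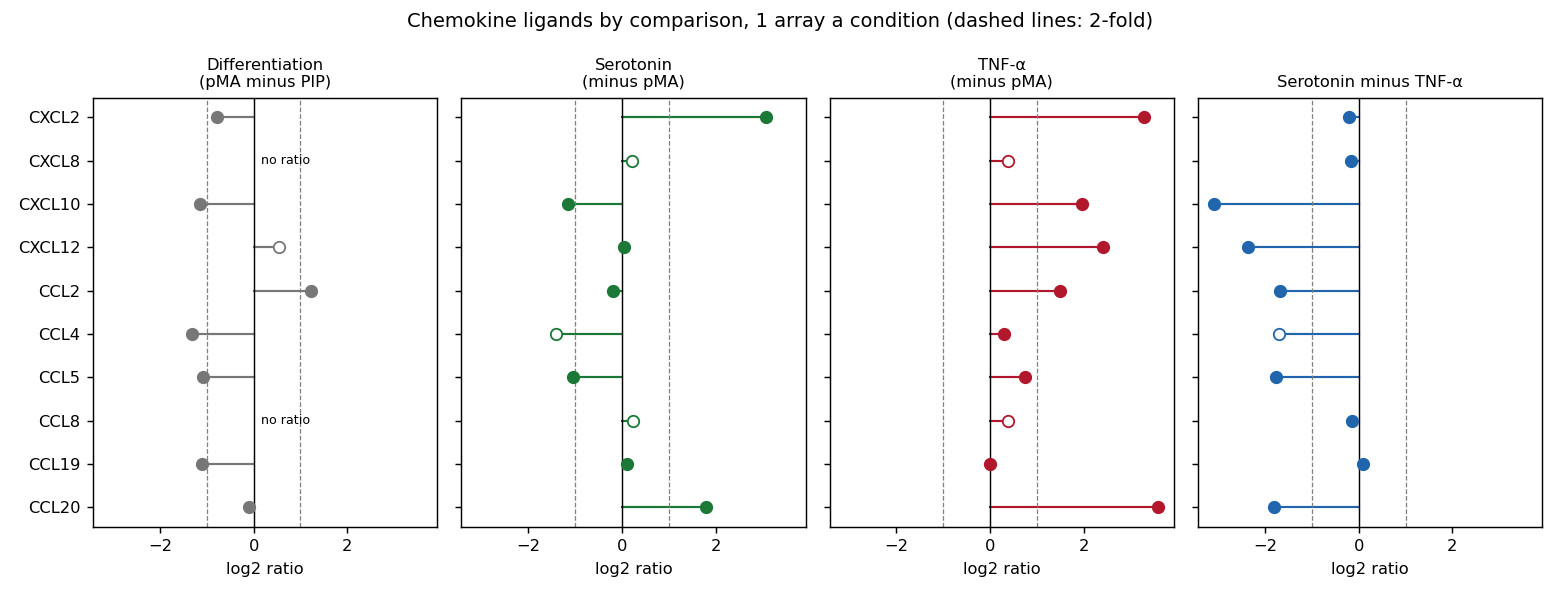
Log2 ratio of each ligand (x axis) by its brightest probe in the 4 comparisons, 1 array a condition; open circles are lower limits of the change and dashed lines mark 2-fold. With TNF-α 5 ligands lie right of the 2-fold line and none left of it, while with serotonin CXCL10, CCL4 and CCL5 lie left of the 2-fold line.

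CXCL2, a neutrophil attractant, was the ligand with the highest ratio after serotonin. Its brighter probe had 99.2 intensity units in PIP cells, 53.7 in pMA, 530.0 after serotonin and 605 after TNF-α. It stood low in both unstimulated conditions and high in both stimulated ones. The fold difference from unstimulated pMA was 8.35 with serotonin and 9.65 with TNF-α, and 7.78 and 8.45 on the overlapping probe. Normexp, another background correction, lowered the folds of the first probe to 3.59 and 4.20. Only 16 of 19093 gene names had a higher ratio with serotonin, and 27 of 19785 with TNF-α. Serotonin and TNF-α levels differed by -0.21 on the log2 scale, within the spot noise. The value in pMA was 0.78 below that in PIP cells, which is beyond that noise but under 2-fold. The paper's RT-qPCR, from independent experiments, lists CXCL2 as significantly higher after TNF-α and does not list it after serotonin. Its microarray text lists CXCL2 the other way round, as higher with serotonin and unchanged with TNF-α, unlike the TNF-α ratio here.

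CCL20, which attracts cells bearing CCR6, was also higher in both stimulated conditions, by unequal amounts. Its single probe gave 53.9 intensity units in PIP cells, 47.1 in pMA, 192 after serotonin and 660 after TNF-α. PIP cells and pMA lay within the spot noise, with a log2 ratio of -0.09. Serotonin gave a 3.46-fold and TNF-α a 12.0-fold higher value than unstimulated pMA, the latter exceeded by 19 of 19785 gene names. Normexp lowered these to 1.90-fold, under the cutoff, and 5.40-fold. Set directly against each other, the serotonin value was 1.80 lower than the TNF-α value on the log2 scale. The first bases of the probe are shown because CCL20 rests on it alone.
CCL20 A_72_P177441: atgtaaaaacagatgctccctgctatggaa

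CXCL8, the other neutrophil attractant here, gave a different picture on each probe and was close to the detection limit on both. The brighter one, A_72_P413808, read 24.5 intensity units in PIP cells, 23.9 in pMA (where it was not detected), 32.9 after serotonin and 36.4 after TNF-α. Each step in this order lay within the spot noise. The second, A_72_P232367, was dim in PIP cells, at 3.79 units, and in pMA, at 5.44, and read 32.0 after serotonin and 18.8 after TNF-α. On that probe serotonin was at least 1.41-fold above unstimulated pMA, and the limit of the brighter one was 1.17-fold. No CXCL8 ratio reached 2-fold, and the direction between serotonin and TNF-α was -0.16 on one probe and 0.75 on the other. These limits are set by the faint signal in pMA, so they do not bound the difference from above. In the paper's RT-qPCR, from independent experiments, IL8 is listed as significantly higher after TNF-α and not after serotonin. Both probes are shown by their first bases.
CXCL8 A_72_P413808: aacaagcaaaaacccattctccgtggctcc
CXCL8 A_72_P232367: tgactgcaagctttgttatgcagtgctgta

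CXCL10, an interferon target, moved in opposite directions under the stimuli. Its brighter probe read 812 intensity units in PIP cells, 341 in pMA, 183 after serotonin and 1538 after TNF-α. All 4 values were separated beyond the spot noise, TNF-α being highest and serotonin lowest. Relative to unstimulated pMA the log2 ratio was -1.14 with serotonin and 1.95 with TNF-α, and the second probe gave -1.08 and 2.03. With serotonin CXCL10 was 8.53-fold lower than with TNF-α, the widest gap among the 10 ligands, and only 50 of 21864 gene names had a lower ratio in that direct comparison. The second probe gave 8.65-fold. These probes are shown by their first bases because they share no run longer than 6 bases and gave the same directions.
CXCL10 A_72_P165266: ctgagtgggtgctcttcaaaataaaactaa
CXCL10 A_72_P509208: gatcattccactttgggacttaatcgaagt

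CCL5, a T cell and monocyte attractant, kept the same order on both probes that were detected on all arrays. The brightest probe had levels of 3.80 in PIP cells, 2.71 in pMA, 1.67 after serotonin and 3.44 after TNF-α. All 4 values were separated beyond the spot noise, PIP cells being highest and serotonin lowest. The log2 ratio was -1.09 for differentiation, -1.04 for serotonin and 0.73 for TNF-α, and the second probe gave -0.94, -1.07 and 0.58. The third probe was below detection in pMA and after serotonin, and it put TNF-α at least 2.31-fold above pMA, past the cutoff that the brighter probes did not reach. Against TNF-α, serotonin was lower on all 3 probes, with log2 ratios from -1.77 to -1.65.

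CCL4, another attractant of T cells and monocytes, was faint. Its probe read 96.6 intensity units in PIP cells, 36.2 in pMA, 13.5 after serotonin (under the detection limit) and 51.8 after TNF-α. PIP cells were highest, 2.48-fold above pMA, and serotonin was lowest, at least 2.64-fold below pMA. TNF-α and pMA lay within the spot noise, with a log2 ratio of 0.29. Normexp reduced the serotonin ratio to -0.50 and the differentiation ratio to -0.60.

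CCL2, the monocyte attractant long known from fat tissue, was bright on every array and not saturated. The brighter probe had levels of 6.00 in PIP cells, 7.21 in pMA, 7.02 after serotonin and 8.70 after TNF-α. TNF-α was highest, PIP cells lowest, and pMA and serotonin lay within the spot noise of each other with a log2 ratio of -0.19. pMA were 2.32-fold above PIP cells on this probe and 2.04-fold on the other. TNF-α was 2.81-fold above unstimulated pMA on the brighter probe and 4.27-fold on the dimmer one, a gap of 0.60 on the log2 scale that exceeds the spot noise, so the size depends on the probe and the direction does not. CCL2 was the sole ligand shown to be at least 2-fold higher in pMA than in PIP cells. CXCL12 had only a lower limit there, 1.46-fold, and CXCL8 and CCL8 had no ratio. Scaling to the median lowered the log2 ratio of CCL2 to 0.86, under the cutoff.
CCL2 A_72_P035346: ggtccttgcaaggatggtgaacacaaaaac
CCL2 A_72_P675364: cgagaatctgaagacaattcatttccttct

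CCL8, whose gene has 1 protein-coding gene between it and CCL2 in the RefSeq order, stayed at the detection limit. The probe printed whole above read 3.94 intensity units in PIP cells and 19.8 in pMA, neither of them detected, then 27.5 after serotonin and 30.01 after TNF-α. The stimulated values lay within the spot noise of each other. They were at least 1.17-fold and at least 1.29-fold above pMA, differences that also lay within the spot noise. No ratio between pMA and PIP cells could be given. The other CCL8 probe was dark throughout, between 3.79 and 5.07 units.

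CXCL12, a ligand that is produced by stromal cells without stimulation, was seen clearly only with TNF-α. The brighter probe read 4.32 intensity units in PIP cells (not well above background), 20.02 in pMA, 24.2 after serotonin and 123 after TNF-α. Serotonin and pMA lay within the spot noise, and TNF-α stood apart from both. TNF-α was 5.27-fold above pMA and serotonin 1.02-fold. Against PIP cells, pMA stood at least 1.46-fold higher. The pMA value lay just over the faintest detected intensity of its array, 19.2, and normexp lowered the log2 ratio for TNF-α from 2.40 to 0.92, under the cutoff. The dimmer probe, printed whole above, was detected after TNF-α only, at 21.4 units against 19.97 after serotonin and 9.61 in pMA, and gave no ratio against pMA. The large TNF-α value of this gene therefore rests on 1 probe, whose first bases follow.
CXCL12 A_72_P713558: gacggcaaatccatcaacctcaaactcaca

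CCL19, a lymph node chemokine, had probes that contradicted each other. On A_72_P286589, the brighter, the levels were 0.95 in PIP cells, -0.14 in pMA, -0.04 after serotonin and -0.14 after TNF-α, with the last 3 within the spot noise. On A_72_P150086 they were -2.30, -1.65, -2.37 and -1.05, with TNF-α highest and PIP cells and serotonin lowest. The log2 ratio for differentiation was -1.10 on the first and 0.65 on the second, so no direction can be given for the gene. It counts among the ligands lower in pMA only because the brighter probe stands for it, and the mean over both probes was -0.23. The second probe was 2.49-fold lower with serotonin than with TNF-α, whereas the first gave a log2 ratio of 0.10. The brighter probe starts as follows.
CCL19 A_72_P286589: acttgaacccagaaaatgttactgatgtct

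**Figure D3:**
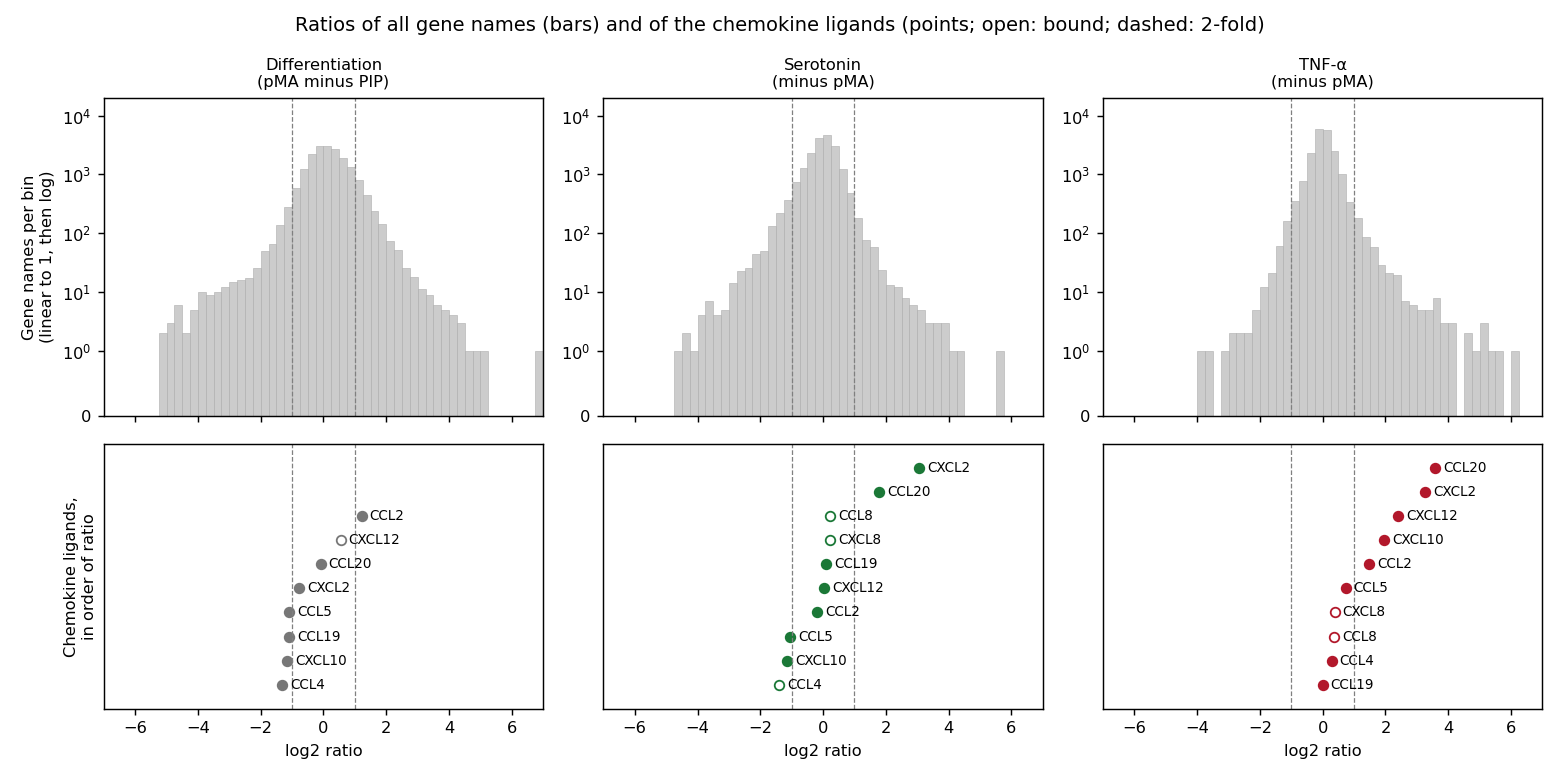
Upper panels show the number of gene names (y axis, linear to 1 and then logarithmic) by log2 ratio (x axis, bins of 0.25) in differentiation, serotonin and TNF-α; lower panels show the ligands with a ratio in order, open circles being lower limits and dashed lines marking 2-fold. CXCL2 (3.06) and CCL20 (1.79) lie in the right tail with serotonin, and with TNF-α CCL20 (3.59), CXCL2 (3.27), CXCL12 (2.40) and CXCL10 (1.95) do.

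The direct comparison of the stimulated arrays does not involve the unstimulated one. Of the 10 ligands, 6 were at least 2-fold lower with serotonin than with TNF-α, CXCL10, CXCL12, CCL2, CCL4, CCL5 and CCL20, and 0 were at least 2-fold higher. Over 21864 gene names 5.08% were at least 2-fold lower with serotonin and 1.82% higher. The median log2 ratio was -1.69 for the ligands and -0.04 for all gene names. CXCL2, CXCL8, CCL8 and CCL19 differed by less than 2-fold, with log2 ratios of -0.21, -0.16, -0.15 and 0.10, each within the spot noise on the brightest probe. The doses, 100 μM and 2.5 µg/mL, are of different agents and were each used at 1 level. The paper's microarray text differs for several ligands. It gives CXCL2 and CCL20 as higher with serotonin and unchanged with TNF-α. CXCL10, CCL4 and CCL5 are given there as lower with both, and CCL2, CCL8 and CXCL12 as higher with both. Here CXCL2, CCL20 and CXCL10 were at least 2-fold higher with TNF-α. With serotonin CCL2 and CXCL12 lay within the spot noise of pMA.

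Few other chemokine ligands gave a ratio past 2-fold. Of a list of 32, 18 were on the array under these names, and with TNF-α 0 of the 12 with a ratio reached 2-fold in either direction, with a median log2 ratio of 0.04. In 5 of the 12 the ratio is a lower limit, and 6 more gave none. With serotonin 1 of 7 did, CXCL14, a chemokine of epithelia and fat, at 1.28, whereas its ratio with TNF-α was -0.36. In differentiation 2 of 9 were at least 2-fold higher, CCL17, a ligand of CCR4, at 1.22 and CCL21, the companion of CCL19 at CCR7, at least 2.20-fold, and 0 were lower. In the direct comparison CXCL14 was 1.63 higher with serotonin and CXCL11, which shares CXCR3 with CXCL10, was at least 2.03-fold lower, out of 13. CXCL9, the third ligand of CXCR3, was well above background after TNF-α alone. Of all gene names, 2.21% were at least 2-fold higher and 1.34% lower with TNF-α, and 2.08% and 4.74% with serotonin. In differentiation these shares were 9.92% and 3.56%, and in the direct comparison 1.82% and 5.08%.

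The receptors for these ligands were mostly faint. Of 19 receptors on the array, 8 had a ratio in each comparison with pMA and 11 had none. CCR1, CCR3, CCR6, CXCR4 and CXCR6 were among the latter in all 3. CXCR2, the receptor of CXCL2 and CXCL8, had a log2 ratio of -2.01 with serotonin and -0.50 with TNF-α. ACKR3, a scavenging receptor for CXCL12, stood at -0.82 with serotonin and 1.63 with TNF-α. CCRL1, now called ACKR4, a scavenger of CCL19 and CCL21, was 1.81 higher in pMA than in PIP cells, 2.54 higher again with serotonin, and 0.98 with TNF-α. XCR1 was 1.08 higher in pMA. In the direct comparison ACKR3 (-2.45) and CXCR2 (-1.50) were lower and CCRL1 (1.57) higher with serotonin than with TNF-α, and these were the receptors past 2-fold among 9. Of all gene names 5.08% were at least 2-fold lower there and 1.82% higher.

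Some genes of NF-kB signalling were higher with TNF-α, and fewer with serotonin. Of 11 on the array, 5 were at least 2-fold higher with TNF-α, against 2.21% of all gene names. Among them were TNFAIP3 (5.29) and NFKBIA (3.04), inhibitors that NF-kB itself switches on, TNIP1 (1.56) and NFKB1 (1.17), while VCAM1 was at least 3.37-fold higher. None was at least 2-fold lower, 4 of the 11 had a ratio below 0, and the median was 0.74. With serotonin 2 of 10 were at least 2-fold higher, TNFAIP3 (2.26) and NFKBIA (1.97), and NFKB2 was lower (-1.44), with a median of 0.33. Of all gene names 2.08% were higher and 4.74% lower. NFKB2 had also been 3.07 higher in pMA than in PIP cells, where the median of 10 genes was 0.10. In the direct comparison TNFAIP3 (-3.04), TNIP1 (-1.39) and NFKBIA (-1.07) were lower with serotonin than with TNF-α, as was VCAM1, by at least 4.74-fold.

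Many interferon response genes had log2 ratios below -1 in differentiation and with serotonin. Of 16 on the array, 8 were at least 2-fold lower in pMA than in PIP cells, among them MX1, ISG15, IFIT1, IFIT2, OAS1, DDX58 and RSAD2, from -2.29 for RSAD2 to -1.17 for MX1, against 3.56% of all gene names. Under scaling to the spike-in controls 5 were, against 284 of 18165 gene names. With serotonin 9 were at least 2-fold lower, among them RSAD2 (-2.36), GBP1 (-2.12), DDX58 (-1.88), ISG15 (-1.88), OAS1 (-1.86), IFIT2 (-1.68), IFIT1 (-1.65) and IFIT3 (-1.33), against 4.74% of all gene names, and 0 were higher, with a median of -1.19. With TNF-α 0 of the 16 reached 2-fold and the median was 0.13, whereas CXCL10 stood at 1.95. In the direct comparison 12 of 16 were at least 2-fold lower with serotonin than with TNF-α, among them RSAD2 (-2.59), GBP1 (-2.36), OAS1 (-2.31), DDX58 (-2.09), ISG15 (-1.90), IFIT1 (-1.65), IFIT2 (-1.50), IRF1 (-1.27), MX1 (-1.25), IFIT3 (-1.11) and GBP2 (-1.04).

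**Figure D4:**
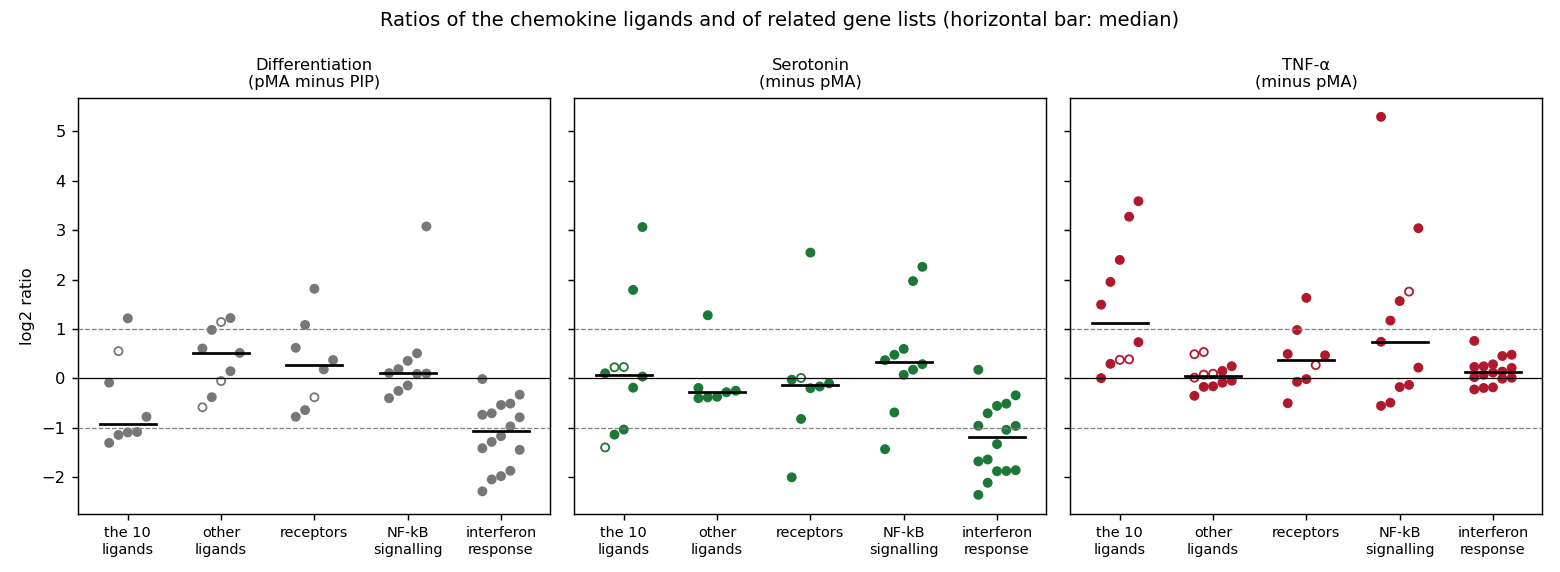
Log2 ratio (y axis) of the 10 ligands and of 4 related gene lists (x axis) in differentiation, serotonin and TNF-α, 1 point a gene, with open circles for lower limits, a bar at each median and dashed lines at 2-fold. The interferon list lies mostly below 0 in the first 2 panels (medians -1.07 and -1.19) and near 0 in the third (0.13), where the 10 ligands have their highest median (1.11).

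Likeness to the ligands was measured over the 4 arrays for 5431 gene symbols detected on all of them, as the root mean square difference of levels centred on their own mean. It is a description over 4 points, and with so many symbols close matches are common. The nearest to CXCL10 were CRISPLD1 at 0.14, ACKR3 at 0.28 and SPP1, which encodes osteopontin, at 0.28. CCL2 was nearest to SYN1 (0.13), the complement protease gene C1R (0.13) and LOC100627123 (0.15), and CCL5 to IFI35 (0.14), an interferon-induced gene, LOC100155454 (0.15) and NPL (0.15).

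CCL20 had C1H15orf48 at 0.24, SLC46A2 at 0.26 and SOD2, the mitochondrial superoxide dismutase, at 0.27. The nearest to CXCL2 lay further off, SLC46A2 at 0.36, LOC396877 at 0.41 and the nuclear receptor gene NR4A2 at 0.46. CCL19, read by its brighter probe, was nearest to FANCI (0.02), ERLIN1 (0.04) and ANAPC1 (0.04), at distances smaller than the spot noise. The other 4 ligands were not detected on every array and were not compared.

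The ratios moved with the processing by unequal amounts. For CXCL10, the log2 ratio lay between 1.74 and 2.05 with TNF-α and between -1.17 and -0.98 with serotonin over the 9 alternatives for a ratio, normexp taking the latter under the cutoff. For CCL5 it lay between -1.06 and -0.92 with serotonin, so its call of 2-fold sits on the cutoff and was kept in 7 of 9. The ratios of CXCL2 lay between 2.07 and 3.37 with TNF-α and between 1.85 and 3.18 with serotonin, and those of CCL20 between 2.43 and 3.68 and between 0.93 and 1.91. The lowest values of CXCL2 and CCL20 came from normexp, which adds an offset that draws dim signals together.

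**Figure D5:**
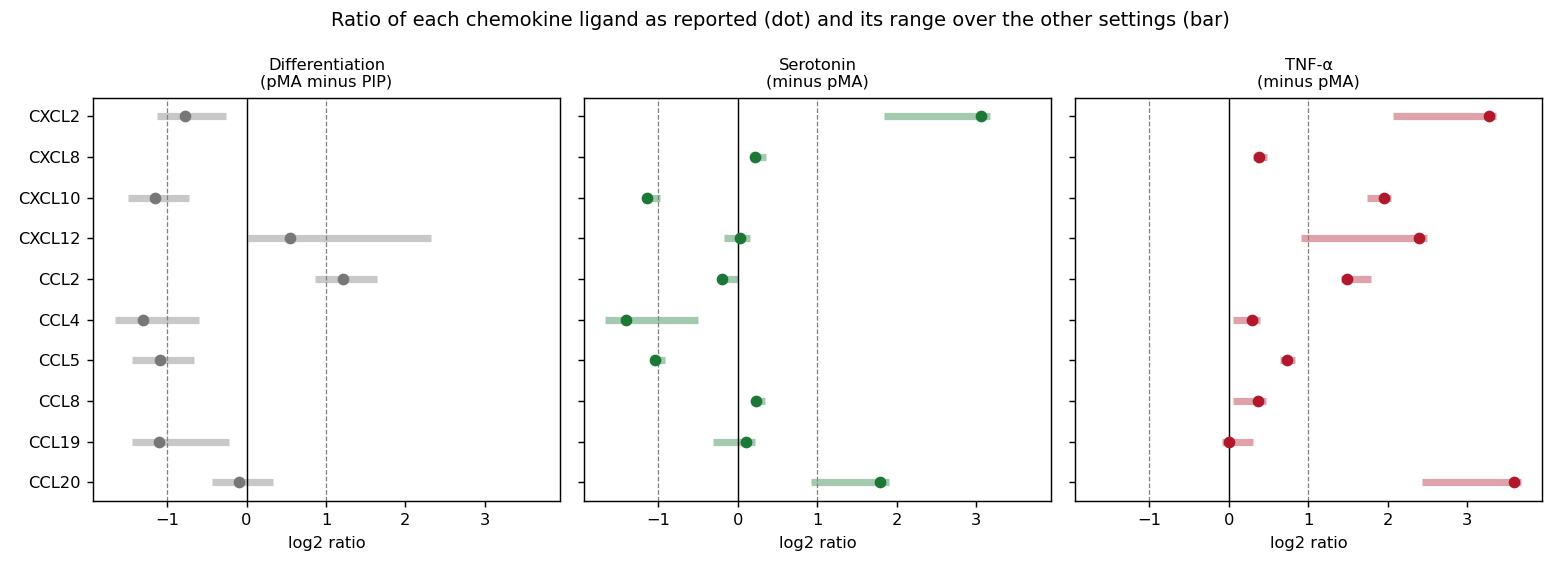
Log2 ratio (x axis) of each ligand as reported (dot) and its lowest to highest value over all settings (bar) in differentiation, serotonin and TNF-α; dashed lines mark 2-fold and ligands with no reported ratio are left empty. The bars of CXCL2 stay right of 2-fold with serotonin and TNF-α, while those of CXCL10, CCL4, CCL5 and CCL19 cross the 2-fold line in differentiation.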

How the data were processed

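Cy3-labelled RNA pools of the 4 conditions were hybridized to the 4 arrays of 1 porcine slide. The authors read them with Agilent Feature Extraction 10.7.3.1, per the file headers, and deposited background-subtracted intensities per spot. The methods also mention a mouse array and a second dye, but the deposited files hold 1 colour and a porcine design. A deposited value table holds the same intensity divided by 1 constant per array, linear and not centred (SD of the log2 difference 0). Samples were grouped by title.

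Here, control spots and spots marked as outliers (1 to 12 an array) were left out, intensities were divided by the 75th percentile of each array and taken to log2, and spots of a probe were averaged. A gene with several probes was read from the brightest one over the arrays. The depth of an array is its signal over background. 1 array a condition limits the precision. Ratios with 1 array below detection were bounded where the detected value exceeded both the undetected value and the faintest detected level of that array. They were left out otherwise. The named genes were the 10 ligands, list genes at least 2-fold changed (some list genes are not reported here by name), and the 3 nearest symbols of each ligand detected on all arrays. The members and lists were chosen with earlier results of these data known. Probe sequences come from the files, and gene names and gene order from RefSeq, Sscrofa11.1. Promoters and proteins were not analysed here. Python 3.11.15, pandas 2.3.3 and, for normexp with offset 50, limma 3.58.1 in R 4.3.3 were used, after tests on simulated data. Alternatives were other scalings (median, percentile over detected probes, quantile, spike-ins), normexp, the value table, other filters, the mean over probes and a 4-fold cutoff.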

Additional observations from a re-analysis of the deposited data

How the results depend on the processing

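The scaling to spike-in controls was added after the data were seen. It changed the number of ligands at least 2-fold lower in differentiation from 4 to 0. Of all gene names, 664 of 18635 were lower there before and 284 of 18165 after. Scaling to the median shifted all gene names in differentiation by -0.35 and left 0 ligands at least 2-fold higher there, against 1, and of all gene names past 2-fold there 34.1% were higher, against 73.6%. That share went from 62.3% to 49.3% with TNF-α under quantile normalization and from 30.5% to 45.9% with serotonin under spike-in scaling. With no filter on dim probes, 3 ligands were higher in differentiation, as were 5812 of 34846 gene names, against 1849 of 18635. The added ligands, CXCL12 and CCL8, were not detected in PIP cells. Normexp, under which 4.44% of all gene names passed 2-fold in differentiation and 3.15% with serotonin, gave 2 lower in differentiation, against 4, and with serotonin 1 higher, against 2, and 0 lower, against 3. At a 4-fold cutoff the counts higher and lower were 0 and 0 in differentiation and 1 and 0 with serotonin, 3 were higher with TNF-α, and 2 were lower with serotonin than with TNF-α, where 1.84%, 0.98%, 0.51% and 1.25% of all gene names passed. The other 68 counts stayed within 1.5 times. The median log2 ratio of the ligands went from -0.93 to between -1.13 and -0.43 in differentiation. No ligand at least 2-fold changed reversed its direction under these alternatives, none of which read a gene by its dimmer probe alone. The dimmer CCL19 probe gave 0.65 in differentiation, against -1.10 on the brighter one. Of 332 ratios of single ligands, 283 moved by less than 1 pooled standard deviation of a ratio between repeated spots. Part of this is fixed by design. The other filters leave a ratio unchanged where both arrays detected the probe, as does the mean over probes for a gene with 1 probe. The cause of the shifts between settings was not tested. CXCL8, CCL8 and, outside TNF-α, CXCL12 lay near the detection limit, where no fold can be bounded from above. No paired analysis was possible because each condition has 1 array.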
